A study of Homo sapiens with 32 samples.

Results

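TUFM, PSD3 and FAM136A were examined as the genes that hold some of the highest-ranked m6A regions called wherever SETD2 was expressed and in no SETD2KO library of a cell line. TUFM and PSD3 were chosen by their calls in 786-O and FAM136A by its calls in RPTEC. All called peaks that overlapped a gene body by at least 1 bp were taken, which gave 200 of 474004 peaks over 16 lists. Of these, 29 lay in TUFM, 157 in PSD3 and 14 in FAM136A. The 3 genes were among 13420 protein-coding genes with a peak in at least 1 library.

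The study asked whether loss of SETD2, the enzyme that places H3K36me3, alters where m6A lies in mRNA of renal cells. Methylated RNA immunoprecipitation sequencing (MeRIP-seq) was run on 786-O, a clear cell renal cell carcinoma line, and RPTEC, an immortalized proximal tubule line, all untreated. In each cell line there was the parental line (WT), a pair of clones with SETD2 inactivated by CRISPR/Cas9 (SETD2KO-1 and SETD2KO-2), and SETD2KO-1R, a clone of SETD2KO-1 that re-expresses a tagged SETD2 transgene. Each of the 4 lines had 2 immunoprecipitated (IP) libraries, so that 4 libraries of WT and SETD2KO-1R (SETD2-expressing) stood against 4 of SETD2KO-1 and SETD2KO-2 in either cell line. Each knockout or rescue line is 1 clone, and nothing in the labels says that its libraries came from separate cultures. P-values therefore measure the spread between libraries, which may be technical.

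m6A is the most common internal mark of mRNA. It is written by a complex around METTL3 at short motifs with the core GGAC or a close relative, often near stop codons, and is read by proteins that act on splicing, translation and decay of the transcript. H3K36me3 marks the bodies of transcribed genes and is bound by METTL14, the partner of METTL3. TUFM encodes the elongation factor that brings aminoacyl-tRNA to the mitochondrial ribosome. PSD3 encodes a guanine exchange factor of ARF6, a small GTPase of endosomes and the cell surface. FAM136A encodes a small protein of the mitochondrial intermembrane space.

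The lists hold called peaks with a whole-number score and a summit, and no read counts. The methods state only a minimum of reads per sample, so the depth behind a peak is unknown and no counting interval can be given. Between 19249 and 39670 peaks were called per library, and no peak of any list recurred with identical bounds and score in another. Because the unit of the score is not given, scores were turned into a percentile within each list, the percentage of its peaks that score the same or lower. A site that is not called may be less methylated, sit in a less abundant transcript or fall short of the caller's threshold, and these cannot be told apart without reads. The lists carry no strand, so a peak is assigned by position alone. Peaks were called in all 8 libraries of both cell lines at PAX8, PAX2, KRT8, KRT18, CDH2 and CDH6, genes of renal epithelium. None was called at LRP2, a defining receptor of the proximal tubule, or at CDH1, CUBN had a peak in 1 library of 786-O only, and EPCAM in 2 libraries of RPTEC only. SETD2 itself had peaks in every library, knockouts included, so the presence of a peak there does not check the genotype. Their number was 4 to 6 in SETD2KO and 7 to 11 in SETD2-expressing libraries of RPTEC, where 1.41% of 12185 protein-coding genes had fewer peaks in every SETD2KO library. In 786-O it was 7 to 10 with SETD2 and 4, 5, 5 and 10 in SETD2KO, the 10 in SETD2KO-1 replicate 2.

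Overlapping or abutting peaks were joined into regions, separately for the 8 libraries of either cell line. In 786-O, 116 of 78903 regions (0.147%) had a call in each of the 4 SETD2-expressing libraries and none in SETD2KO, and 100 of these lay in a protein-coding gene. The TUFM region was first of these 100 by mean score percentile, at 95.2, and the PSD3 region stood at position 3 with 87.8. ACACA, the acetyl-CoA carboxylase of fatty acid synthesis, stood between them at 91.1, and PCGF3, a Polycomb subunit, followed at 82.5. In RPTEC, 145 of 68421 regions (0.212%) had the same pattern, 126 of them in a protein-coding gene. FAM136A ranked second at 93.4, between LAMC1, a laminin chain, at 95.5 and ITGA6, a laminin-binding integrin, at 90.5. These values chose the genes and carry no test.

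**Figure D1:**
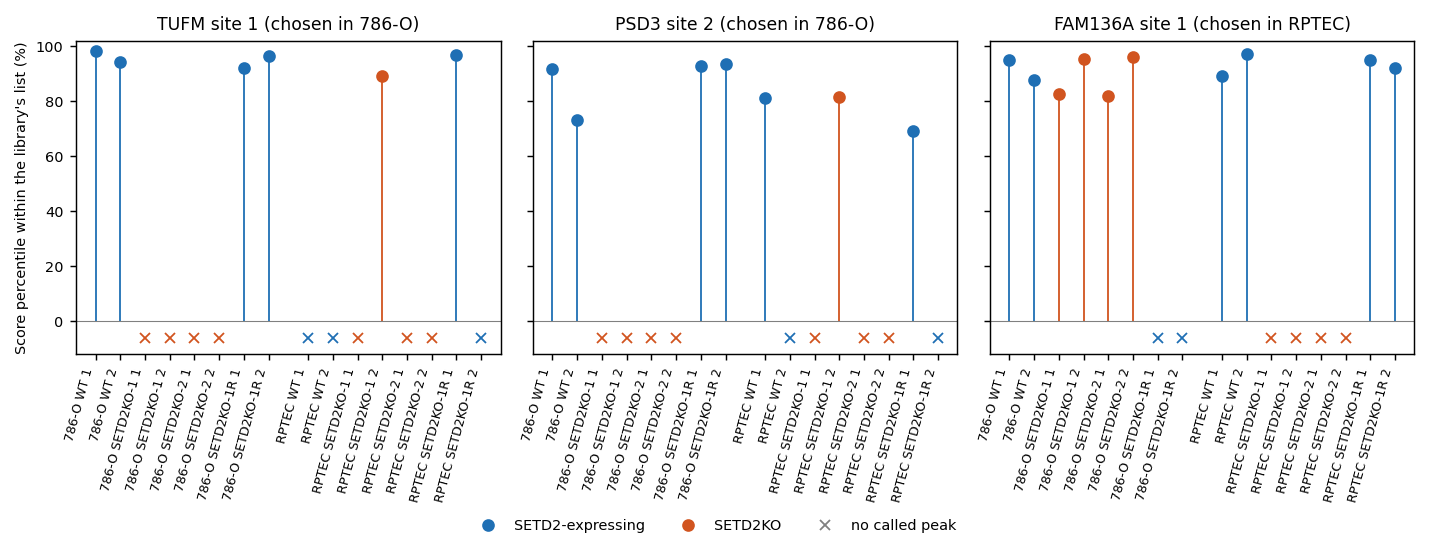
Score percentile within each list (vertical axis, %) of the peak at TUFM site 1, PSD3 site 2 and FAM136A site 1 in the 16 IP libraries (horizontal axis); crosses mark libraries with no called peak. In the cell line used to choose each gene the 4 SETD2-expressing libraries are called and the 4 SETD2KO libraries are not, whereas FAM136A site 1 is called in all 4 SETD2KO libraries of 786-O and in neither SETD2KO-1R library.

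TUFM lies on the minus strand at chr16:28842411-28846348 (GRCh38), a gene body of 3938 bp. Its peaks fell at 5 sites, numbered here from the 3′ end of the gene. Site 1, at chr16:28843100-28843494, is the region by which the gene was chosen. Its peaks in 786-O had percentiles of 98.3 and 94.1 in WT and 92.2 and 96.3 in SETD2KO-1R, with scores of 623, 445, 409 and 449. No peak was called there in the 4 SETD2KO libraries of 786-O. The 4 summits fell within 25 bp of each other, 855 to 880 bp from the 3′ end of the gene body.

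The other cell line, which took no part in the choice, did not show this split at site 1. In RPTEC the site was called in 1 SETD2KO-1 library at percentile 89.0 and in 1 SETD2KO-1R library at 96.9. Neither WT library and neither SETD2KO-2 library had a peak there. The site was thus called in 1 of 4 SETD2-expressing and 1 of 4 SETD2KO libraries of RPTEC, with both summits within 30 bp of all those in 786-O.

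The sites upstream of it in TUFM had other patterns in 786-O. Site 3, at chr16:28844440-28845266, was called in both WT libraries at percentiles 93.4 and 92.5. It was also called in SETD2KO-1 at 90.8 and 97.3 and in SETD2KO-2 at 95.2 and 97.0. SETD2KO-1R had no peak at site 3. Site 4, at chr16:28845468-28845800, was called in 1 WT library at 98.6, in 1 SETD2KO-1 library at 98.7 and in both SETD2KO-2 libraries at 98.1 and 97.4, and again in neither SETD2KO-1R library. In 786-O the rescue clone therefore lacked calls at both sites, where its knockout parent had them in 2 and 1 of 2 libraries, and had calls at site 1 where the parent had none. A low-ranked peak at site 2, chr16:28843543-28843898, appeared in WT replicate 2 alone, at percentile 19.2.

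In RPTEC, sites 3 and 4 were called in both SETD2KO-1R libraries. Their percentiles were 98.8 and 96.1 at site 3, where replicate 1 had a further peak at 42.1, and 91.4 and 99.3 at site 4. SETD2KO-1 had site 3 in both libraries, at 91.6 and 97.7, and site 4 in 1 library, at 93.8. WT had only site 3 in replicate 1, at 87.5. SETD2KO-2 had no TUFM peak in either library. The rescue clone of RPTEC thus called sites 3 and 4, and that of 786-O did not.

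TUFM site 5, at chr16:28846085-28846483, spans the 5′ end of the gene and was called in 786-O only. It was present in SETD2KO-1 replicate 1 at percentile 72.0 and in SETD2KO-1R replicates 1 and 2 at 57.7 and 82.5, and absent from WT and SETD2KO-2. These 3 peaks reached 108, 135 and 111 bases past the annotated start. The stretch they cover upstream of the start, chr16:28846349-28846483 (minus strand, GRCh38.p14, from RefSeq), is shown because the site occurred in the knockout clone and the rescue clone derived from it and in no other line. Capitals mark the only match on the gene's strand to GGAC followed by any base but G.
TUFM upstream stretch: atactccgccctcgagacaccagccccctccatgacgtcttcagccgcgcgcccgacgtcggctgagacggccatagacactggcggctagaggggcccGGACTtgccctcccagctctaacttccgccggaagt
The match begins 36 bases before the start, and the opposite strand held none. Over 35116 promoters, 32.0% of stretches of the same length and position held such a match on the gene's strand, and 53.7% on either strand. The match is a description of the letters and does not locate m6A.

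**Figure D2:**
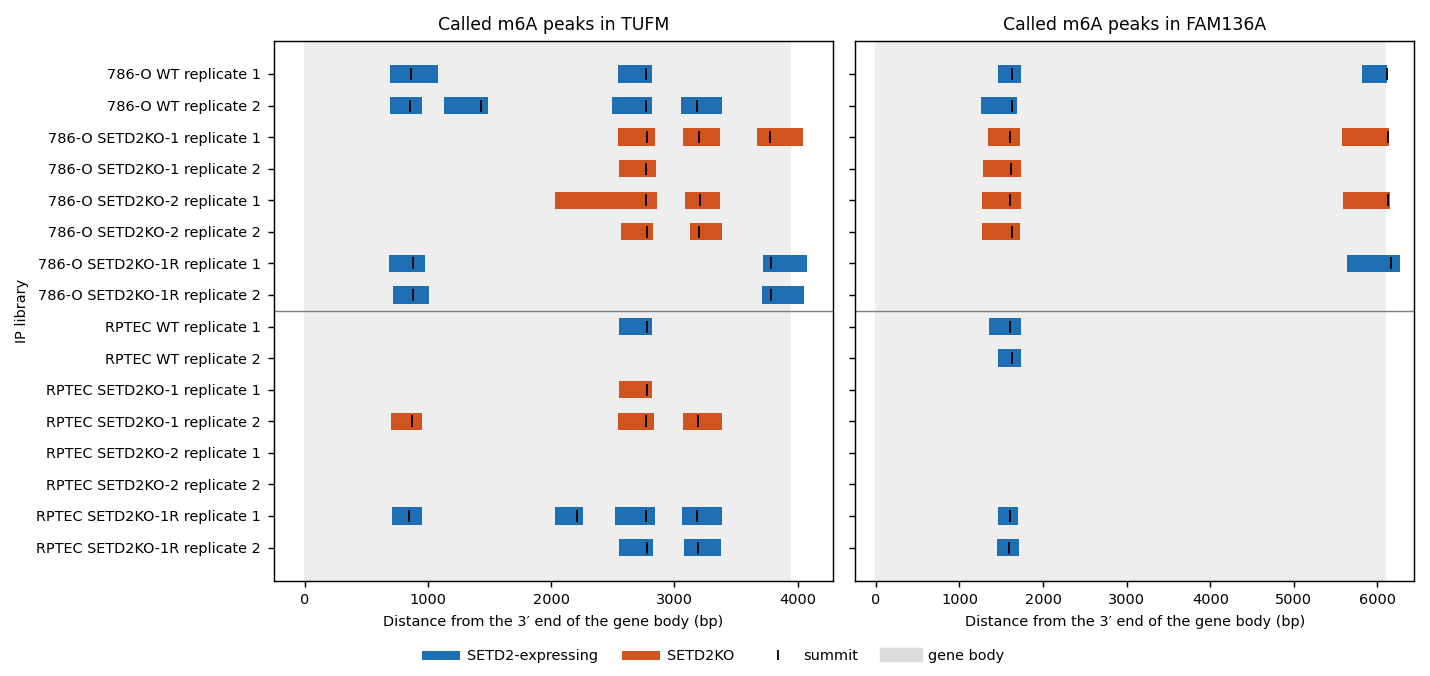
Called m6A peaks (bars) and their summits (ticks) in TUFM and FAM136A by library, drawn to scale as distance in bp from the 3′ end of the gene body (grey). TUFM site 1, with summits at 850 to 880 bp, is called in SETD2-expressing libraries alone within 786-O and in 1 library of either group in RPTEC, while the site with summits at 2771 to 2780 bp is present in all 786-O lines but SETD2KO-1R; FAM136A has 1 site with summits at 1594 to 1632 bp and 1 at the 5′ end.

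Counted over the whole gene, the WT libraries of 786-O had 2 and 4 TUFM peaks. SETD2KO-1 had 3 and 1, and every library of SETD2KO-2 and SETD2KO-1R had 2. The mean was 2.5 ± 1.0 (SD, n = 4) in SETD2-expressing and 2 ± 0.816 (SD, n = 4) in SETD2KO libraries, groups that overlapped. These values come from the cell line that chose the gene and were not tested. In 786-O, 0.901% of 12430 genes had fewer peaks in every SETD2KO than in every SETD2-expressing library and 1.52% had more, and TUFM was in neither set. In RPTEC, WT had 1 and 0 TUFM peaks, its SETD2KO-1 clone 1 and 3, SETD2KO-2 none, and the rescue clone 4 and 2. The SETD2KO mean of 1 was 0.75 peaks below the SETD2-expressing mean of 1.75, a difference smaller than the spread between libraries (two-sided exact permutation test, p = 0.657, adjusted p = 1). Both RPTEC groups ran from 0 upward and overlapped.

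Between the cell lines, TUFM had 1.375 ± 1.51 peaks (SD, n = 8) in RPTEC and 2.25 ± 0.886 (SD, n = 8) in 786-O. The choice of the gene required 4 of its 18 peaks in 786-O, so these means are a description. Outside the region that chose it, the means were 1.125 and 1.75. That difference of -0.625 did not pass the test (two-sided exact permutation test, p = 0.338, adjusted p = 0.729 by Benjamini-Hochberg over 13420 genes). All 8 libraries of 786-O had a TUFM peak, against 5 of 8 of RPTEC. Outside the region that chose the gene, the median score percentile was 94.3 over 14 peaks in 786-O and 93.8 over 9 peaks in RPTEC.

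PSD3 occupies chr8:18527303-19084805, a gene body of 557503 bp, and its strand is not in the gene table used. The 157 peaks fell at 43 sites, numbered here from the low-coordinate end. Of these sites, 17 were called in both cell lines, 7 in 786-O alone and 19 in RPTEC alone. As many as 20 sites (46.5%) were called in 1 library only, and 2 were called in at least 12. The more libraries called a site, the higher its peaks tended to rank. The median percentile was 20.5 over the 20 peaks of single-library sites, 37.3 over 38 peaks at the 14 sites called in 2 to 5 libraries, and 61.1 over 99 peaks at the 9 sites called in 6 or more.

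Site 2 of PSD3, at chr8:18535912-18536211, is the region that chose the gene. In 786-O its percentiles were 91.6 and 73.1 in WT and 92.8 and 93.6 in SETD2KO-1R, and no SETD2KO library had a peak there. In RPTEC it was called in WT replicate 1 at 81.3, in SETD2KO-1 replicate 2 at 81.5 and in SETD2KO-1R replicate 1 at 69.0. It was therefore called in 2 of 4 SETD2-expressing and 1 of 4 SETD2KO libraries of RPTEC, and in neither SETD2KO-2 library. All 7 summits lay within 50 bp.

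Of the 24 PSD3 regions of 786-O, 10, the chosen one among them, were called in SETD2-expressing libraries alone, 5 in SETD2KO libraries alone and 9 in both. Over all regions of 786-O these classes made up 23.9%, 26.3% and 49.8%. Of the 36 PSD3 regions of RPTEC, 11 were called in SETD2-expressing libraries alone, 9 in SETD2KO libraries alone and 16 in both, beside 28.4%, 23.9% and 47.6% over all regions of that cell line. Site 25, at chr8:18871956-18873001, was called in all 4 SETD2KO and 3 SETD2-expressing libraries of 786-O, and site 10, at chr8:18673231-18673653, in 2 and 1. Site 24, at chr8:18867874-18868345, was called in both WT libraries at 90.8 and 78.4, in SETD2KO-1R replicate 1 at 92.8, and in no SETD2KO library of 786-O. In RPTEC each SETD2-expressing library called this site, as did 3 of 4 SETD2KO libraries, at percentiles between 88.0 and 96.4. Its 10 summits spanned 27 bp over both cell lines. Site 32, at chr8:18928783-18929143, had a peak in each SETD2-expressing library of 786-O and in 1 SETD2KO library, SETD2KO-1 replicate 2, at 75.3. In RPTEC it was called in 3 libraries of either group.

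The most recurrent PSD3 sites were called with and without SETD2. Site 36, at chr8:18996795-18998031, was called in 15 of 16 libraries, all except SETD2KO-2 replicate 2 of 786-O, and held 22 peaks between percentiles 4.64 and 81.4. Site 35, at chr8:18990150-18990807, was called in 13 libraries, of which 5 were SETD2KO. Both overlap LOC105379303, a further annotated gene, so without strand these peaks cannot be assigned to PSD3 alone. In all, 11 of the 43 sites overlap another annotated gene, among them the antisense gene PSD3-AS1 at site 14. Sites 2, 24 and 32 overlap none.

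**Figure D3:**
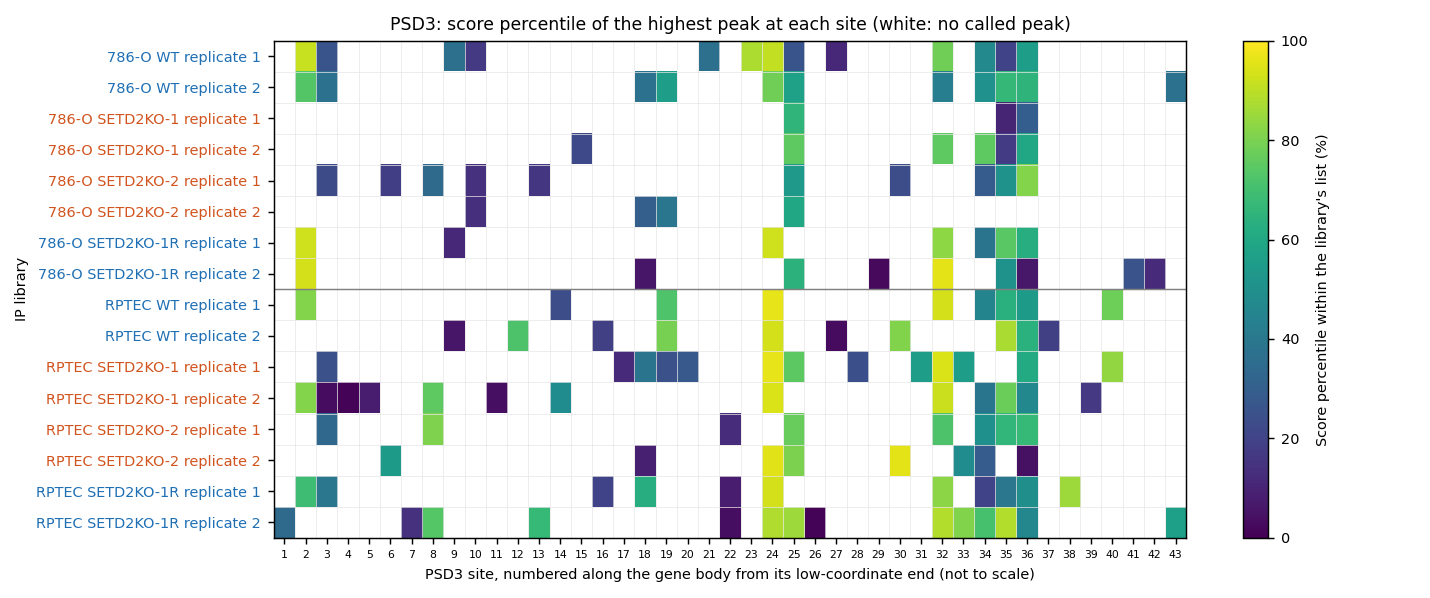
Score percentile (colour, %) of the highest peak at each of the 43 PSD3 sites (horizontal axis, in order along the gene, not to scale) in the 16 IP libraries (vertical axis; blue labels SETD2-expressing, orange SETD2KO). Sites 2 and 24 are empty in the 4 SETD2KO libraries of 786-O and filled in 1 and 3 of those of RPTEC, and site 36 is filled in 15 of 16 libraries.

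The WT libraries of 786-O had 13 and 11 PSD3 peaks and those of the rescue clone 7 and 9. SETD2KO-1 had 4 and 8, and SETD2KO-2 had 10 and 4. The means were 10 ± 2.58 (SD, n = 4) in SETD2-expressing and 6.5 ± 3.0 (SD, n = 4) in SETD2KO libraries, and the groups overlapped, since SETD2KO-2 replicate 1 with 10 peaks stood above both SETD2KO-1R libraries. That library also had the longest list of all, with 39670 peaks. In the cell line that chose the gene this is a description. In RPTEC, WT had 10 PSD3 peaks in both libraries and the rescue clone 12 and 15. SETD2KO-1 had 14 and 13, and SETD2KO-2 had 9 and 8. The mean of 11 ± 2.94 (SD, n = 4) in SETD2KO was 0.75 below the 11.75 ± 2.36 (SD, n = 4) with SETD2 (exact permutation test, two-sided, p = 0.771, adjusted p = 1). The SETD2KO clones lay on either side of WT, with SETD2KO-1 higher and SETD2KO-2 lower. In RPTEC, 1.41% of 12185 genes had fewer and 1.01% more peaks in every SETD2KO library, and PSD3 was in neither set.

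RPTEC had more PSD3 peaks than 786-O, 11.375 against 8.25 on average, although its lists are shorter on average, with ranges that overlap. The choice of the gene required 4 peaks in 786-O, so these means, and the difference of 510 in bp covered, are a description. Outside the region that chose it, the means were 11 and 7.75, and the difference of 3.25 did not pass the test (two-sided exact permutation test, p = 0.0412, adjusted p = 0.242). With the same number of peaks taken from each list, the highest by score, the means outside that region were 8.375 and 3.375. That difference of 5 peaks, a comparison added after the data were seen, passed (two-sided exact permutation test, p = 0.000311, adjusted p = 0.0177). Under no setting that kept lists of unequal length did the PSD3 difference between the cell lines pass. Cell line and any batch that goes with it cannot be told apart here. At an adjusted p under 0.05, 2.26% of 12502 genes had more peaks in RPTEC with equal peak numbers. With the full lists 1.92% of genes had more peaks in RPTEC and 3.44% more in 786-O, and PSD3 was in neither set.

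FAM136A lies on the minus strand at chr2:70295976-70302067, a gene body of 6092 bp, and its 14 peaks fell at 2 sites. Site 1, at chr2:70297232-70297711 over both cell lines, holds the region chosen in RPTEC, chr2:70297330-70297709. In RPTEC it was called in WT at percentiles 89.1 and 97.3 and in SETD2KO-1R at 95.1 and 92.2, and was the only FAM136A site of that cell line. The 4 SETD2KO libraries of RPTEC had no FAM136A peak at all.

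In 786-O, where the gene was not chosen, the same site was called in all 4 SETD2KO libraries. Its percentiles were 82.8 and 95.2 in SETD2KO-1 and 82.0 and 96.2 in SETD2KO-2. WT also had it in both libraries, at 94.9 and 87.8, and SETD2KO-1R had it in neither. The rescue clone of 786-O was thus the line without the call, whereas in RPTEC it was a line with it. The 10 summits of the site over both cell lines lay within 38 bp, 1594 to 1632 bp from the 3′ end of the gene body, so the calls of both cell lines fall on the same place. The peaks of SETD2KO libraries in 786-O were 376 to 461 bp long, those of WT in 786-O 266 and 432 bp, and those of RPTEC 239 to 376 bp.

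Site 2 of FAM136A, at chr2:70301557-70302246, spans the 5′ end and was called in 786-O alone. It appeared in replicate 1 of all 4 lines and in replicate 2 of none, at percentiles of 85.2 in WT, 74.3 and 69.7 in the knockout clones and 72.5 in the rescue clone. The calls were thus split by replicate number and not by SETD2 status. The peaks reached 28, 46, 55 and 179 bases upstream of the annotated start, the last in SETD2KO-1R. The covered stretch, chr2:70302068-70302246 (minus strand, GRCh38.p14, from RefSeq), is shown as the place where the peaks of the 4 lines differ in extent. Capitals mark the same motif.
FAM136A upstream stretch: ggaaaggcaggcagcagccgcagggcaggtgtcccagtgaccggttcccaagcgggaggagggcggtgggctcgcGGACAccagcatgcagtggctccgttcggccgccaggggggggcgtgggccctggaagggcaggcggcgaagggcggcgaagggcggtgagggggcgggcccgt
This match begins 104 bases before the start, which only the SETD2KO-1R peak reaches, and the opposite strand held 1 further match. Of the same stretch in all 35116 promoters, 40.6% held a match on the gene's strand and 64.6% on either strand. Promoter windows were found for TUFM and FAM136A, and no sequence is printed for PSD3.

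Over the gene, FAM136A had 2 peaks in replicate 1 and 1 in replicate 2 of WT and of both knockout clones of 786-O, and 1 and 0 in the rescue clone. The mean was 1.5 in SETD2KO and 1 with SETD2, and the difference of 0.5 was smaller than the spread between libraries (two-sided exact permutation test, p = 0.657, adjusted p = 1). It was 0.5 within either replicate number too, as 2 against 1.5 in replicate 1 and 1 against 0.5 in replicate 2. In RPTEC, FAM136A had 1 peak in each SETD2-expressing library and 0 in each SETD2KO library. It belonged there to the 1.41% of genes with fewer peaks in every SETD2KO library, which the choice of the gene fixes. RPTEC had 0.5 and 786-O 1.25 peaks per library, a difference of -0.75. The choice of the gene fixed most of the RPTEC values, so these means are a description. All 4 summits of site 2 lie past the annotated start, and with peaks counted by their summit the means were 0.5 and 0.75. In bp covered, they were 145 and 524.375.

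**Figure D4:**
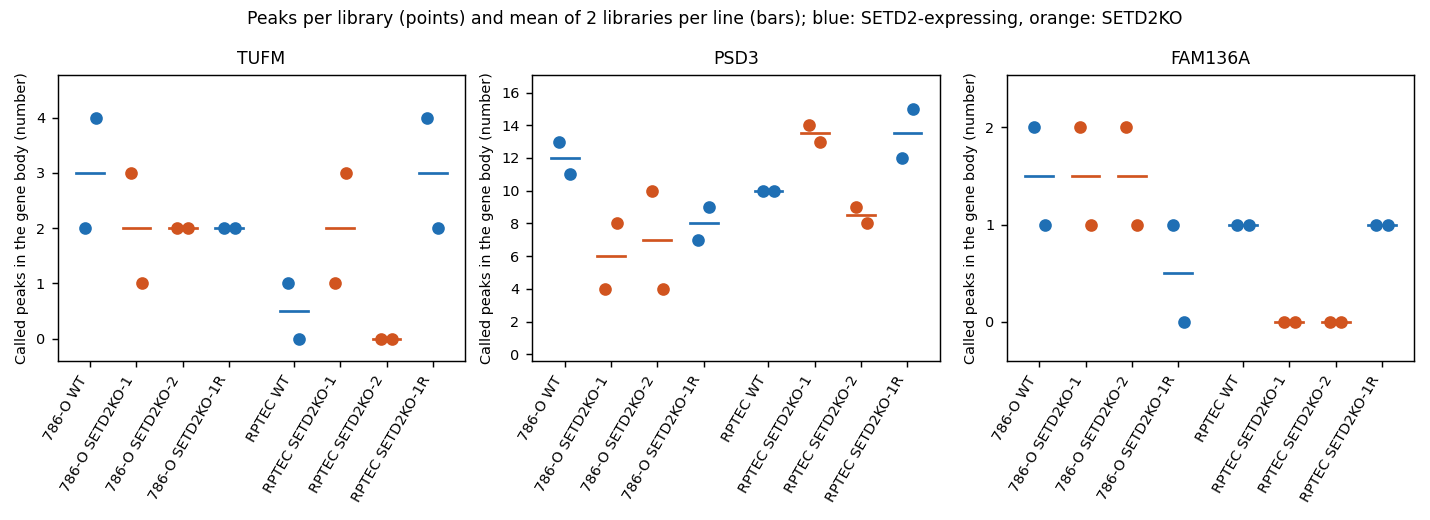
Number of called peaks in the gene body (vertical axis) of TUFM, PSD3 and FAM136A in each library (points, replicate 1 left and 2 right) by cell line and line (horizontal axis), with the mean of 2 libraries as a bar. SETD2-expressing (blue) and SETD2KO (orange) points overlap in both cell lines for TUFM and PSD3 and in 786-O for FAM136A, and are apart for FAM136A in RPTEC, where the gene was chosen.

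Each of the 3 chosen sites was also called in the cell line that did not choose it. So were 81.9% of the 116 regions with the same pattern in 786-O and 87.6% of the 145 in RPTEC. Summits over both cell lines lay within 30 bp for TUFM, 50 bp for PSD3 and 38 bp for FAM136A. For TUFM and PSD3 in RPTEC, the cell line that did not choose them, SETD2KO-1R replicate 1 and SETD2KO-1 replicate 2 called both sites and WT replicate 1 called that of PSD3. The lists of SETD2KO-1R replicate 1 and SETD2KO-1 replicate 2 also had the lowest median peak lengths of RPTEC, 364.5 and 363 bp. Their shortest peaks, 233 bp, were the shortest of RPTEC too, and a link to the calls was not tested. Neither SETD2KO-2 library of RPTEC called either, and 1 of them had the shortest list of all, with 19249 peaks.

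No gene at all passed a Benjamini-Hochberg adjusted p of 0.05 by the exact permutation test of SETD2KO against SETD2-expressing libraries, a design whose smallest p is 0.0286. With that floor a gene could pass only if most tested genes reached it, so the absence of calls says little about any gene. At an unadjusted p under 0.05 there were 301 genes in 786-O and 295 in RPTEC, 2.42% of those tested in either cell line. None of them was a member in the cell line that did not choose it.

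Genes with related functions were counted beside the members. Of 16 listed factors of mitochondrial translation, the process that TUFM serves, 14 had a peak in 786-O and 13 in RPTEC. In neither cell line did any have fewer or more peaks in every SETD2KO library than in every SETD2-expressing library. The median difference of the list was -0.125 peaks in 786-O and 0 in RPTEC, beside 0 and -0.25 over all genes. Of 17 ARF exchange factors and ARF proteins, relatives and substrates of PSD3, 15 had a peak in 786-O and 12 in RPTEC, with median differences of 0.25 and -0.25. IQSEC3, another exchange factor of ARF6, had more peaks in every SETD2KO library of 786-O. It had 3 in both WT libraries, 5 and 6 in SETD2KO-1, 5 and 4 in the other knockout clone, and 0 and 1 in the rescue clone. IQSEC3 was named because its groups do not overlap, which fixes its p at the smallest possible, so no test is given. GBF1, an exchange factor of ARF1 at the Golgi, held 1 of the 145 regions (0.212% of all) called in each SETD2-expressing and no SETD2KO library of RPTEC, at position 77 of 126 with a mean percentile of 41.3.

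Of 21 listed proteins of the mitochondrial intermembrane space, where FAM136A resides, 18 had a peak in each cell line. The median difference was -0.25 in 786-O and 0 in RPTEC. CLPB, a disaggregase of that compartment, had fewer peaks in every SETD2KO library of RPTEC. It had 3 and 2 in WT, 1 in each of the 4 SETD2KO libraries, and 3 and 2 in SETD2KO-1R. CLPB too was named for groups that do not overlap, so no test is given. Over the 3 lists, 1 gene of 786-O and 1 of RPTEC had groups that did not overlap, among 47 and 43 listed genes with a peak. Over all genes the groups did not overlap, in either direction, for 2.42% in 786-O and 2.42% in RPTEC.

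The genes whose covered bp ran most like each member over the 16 libraries were sought among 9723 protein-coding genes with a peak in at least 8 libraries. The points share cell line, line and list length and include the values by which each member was chosen, so the correlations are descriptions. For TUFM these were HLA-E, an MHC class I gene (Pearson r = 0.897), OGFRL1 (0.869) and GATA2, a transcription factor (0.861). For PSD3 they were PRXL2B (0.816), HEG1, a transmembrane receptor (0.806) and NFKBIE, an inhibitor of NF-κB (0.795). For FAM136A they were CELSR1, an atypical cadherin of planar cell polarity (0.936), ARSA, a lysosomal arylsulfatase (0.913) and PDXK, the pyridoxal kinase (0.911). None lies on the chromosome of its member. ARSA had a mean of 0 bp covered in the SETD2KO and 151 bp in the SETD2-expressing libraries of RPTEC, and of 534 and 337 bp in those of 786-O. It was found by its likeness to FAM136A, whose RPTEC pattern the choice fixed, so its split in RPTEC repeats the selection.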

How the data were processed

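The processed data were lists of called peaks from the 16 IP libraries. The 16 Input samples have no list and were not analysed here. According to the methods and the submitters' processing notes, the authors used STAR for alignment to hg38, HTSeq 2.0.3 for counting, an E. coli spike-in for scaling and MACS2 2.2.9.1 to call peaks of IP over Input in each library. Each deposited peak carries a score, given as a whole number of unstated scale, and a summit position; the remaining value columns are 0. The methods state only a minimum of reads per sample, and the lists do not give the depth of each library.

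Genes are RefSeq gene bodies of GRCh38.p14 without exons. Regions were merged on chromosomes 1 to 22, X and Y. The members and lists were chosen with earlier results of these data known. Genes named are the members, their rank neighbours, the 3 most alike genes, and listed genes whose groups do not overlap; GBF1 was named outside this rule, after its values were seen. Peaks per gene were compared by two-sided exact permutation tests over 70 arrangements (4 against 4 libraries) or 12870 (8 against 8), with Benjamini-Hochberg adjustment over all protein-coding genes with a peak. DESeq2, which the authors ran, needs read counts and was not repeated. Steps were tested on simulated data, with large drops planted only in genes with many peaks. Recovery in genes with few peaks, such as TUFM and FAM136A, was not tested. Alternatives were higher-scoring peaks, equal peak numbers, other overlap and merging rules, covered bp, a replicate block, single clones, each library left out and, added after the data were seen, peaks outside the chosen region. Python 3.11.15, NumPy 2.4.6, pandas 2.3.3 and Matplotlib 3.10.9 were used.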

Additional observations from a re-analysis of the deposited data

Results flagged for a closer look

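Among 12 groups of 4 libraries, formed by gene, cell line and SETD2 status, 1 value stood far from the others of its group. TUFM had 4 peaks in WT replicate 2 of 786-O, against 2 in each of the other 3 SETD2-expressing libraries. Beyond WT replicate 1, it called the low-ranked site 2 and site 4. The nominal rate of such a rule is about 1 group in 20 by chance. That rate need not hold here, since most of these groups hold small whole numbers with ties.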

How the results depend on the processing

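No gene passed after adjustment in any SETD2 comparison under any setting, so that these alternatives bear on directions alone. For PSD3 in RPTEC the difference of SETD2KO from SETD2-expressing libraries turned positive with lists cut to equal length (0.5), in bp covered (95.75), with SETD2KO-1 alone (1.75) and when replicate 2 of SETD2KO-2 (0.25) or of SETD2KO-1R (0.333) was left out. It was -3.25 with SETD2KO-2 alone and -1.5 with the upper 50% of each list by score. For TUFM in RPTEC it turned positive with SETD2KO-1 alone (0.25) and was 0 without SETD2KO-1R replicate 1, and it was -1.75 with SETD2KO-2 alone. A clone alone against 4 libraries gives no p under 0.0667. The cause was not tested. The PSD3 difference between the cell lines with lists of equal length was 4.875 with the calls that chose the gene and 5 without them, an alternative added after the data were seen, and the latter passed as given above. With the upper 50% of each list by score, regions called in SETD2-expressing libraries alone numbered 75 in 786-O and 76 in RPTEC, where fewer peaks enter by construction. With lists of equal length within each cell line, 19249 peaks in RPTEC and 25710 in 786-O, they numbered 95 in RPTEC and 128 in 786-O. The cause of these changes was not tested.

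With each library left out in turn, the SETD2KO difference ranged from -1.42 to 0 for TUFM, from -1.75 to 0.333 for PSD3 and from 0.167 to 0.833 for FAM136A. The cell line difference ranged from -1.25 to -0.625 for TUFM, from 2.52 to 3.80 for PSD3 and from -0.929 to -0.643 for FAM136A. Replicate 1 minus replicate 2 differences had no common direction between lines, with r from -0.191 to 0.375 in 786-O and from -0.353 to 0.325 in RPTEC. This does not exclude a pairing by replicate number for some lines or sites, and the calls at FAM136A site 2 were split that way. With a replicate block the differences stay as given, -0.75 for TUFM and PSD3 in RPTEC and 0.5 for FAM136A in 786-O, where no call was possible, since the smallest p within replicate numbers is 0.0556. Between the cell lines the exact permutation test within blocks called 0 genes in place of 719 after Benjamini-Hochberg adjustment, with 1885 at an unadjusted p under 0.05. These blocks pair the cell lines by line and replicate number, which leaves far fewer arrangements than 12870 and a higher smallest p. The 0 therefore cannot be read as a loss of the cell line differences. Without read counts, a site that is not called cannot be read as unmethylated.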
